A study of Homo sapiens with 6 samples.

Results

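The genes described here are 10 readouts of the bone morphogenetic protein (BMP) branch of TGF-β signalling: ID1, ID2, ID3, ID4, NOG, SMAD6, SMAD9, DLX2, MSX1 and MSX2. They were chosen by name, as the probe sets annotated with one of these symbols and no other, and all 10 were found, with 23 probe sets, among 19775 genes and 41091 probe sets that carried a single symbol. The choice was made with earlier results of these data known. Where a gene had several probe sets, the brightest on average over the 6 arrays stood for it, and the others are given beside it. CaSki, the line used, is an established line from a human squamous carcinoma of the cervix. The 3 TGF-β1 arrays came from cells given recombinant TGF-b1 at 2 ng/mL, and the 3 untreated arrays from cells in medium without it; both groups were grown in serum-supplemented medium. The labels do not give the duration of treatment or say whether the 3 arrays of a group came from separate cultures, so each p-value reflects only the spread among these arrays, part of which may be technical. All arrays are of this single line.

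BMPs bind pairs of serine/threonine kinase receptors, which phosphorylate SMAD1, SMAD5 and SMAD9, whereas TGF-β acts mainly through SMAD2 and SMAD3. The ID genes are classical direct targets of the BMP SMADs. ID proteins have a helix-loop-helix domain without a DNA-binding basic region, so they hold E proteins and other helix-loop-helix factors in dimers that cannot bind DNA, and they are known for keeping cells undifferentiated and cycling. In epithelial cells TGF-β is known to repress ID1, with the stress factor ATF3 as a partner of SMAD3. NOG, SMAD6 and the homeobox genes MSX1, MSX2 and DLX2 are known to be induced by BMP in many tissues, NOG and SMAD6 as feedback inhibitors.

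Values are log2 expression estimates, so a difference of 1 is a 2-fold change, and genes count as called, or as having risen or fallen, when the adjusted p was below 0.05 (limma, Benjamini-Hochberg over all genes). Arrays of the same group correlated at 0.994 to 0.996 over all probe sets. The arrays numbered 1 stood apart from the others on the second principal component in both groups, and their excess of 3' over 5' signal in the GAPDH and ACTB controls, which grows as RNA degrades, was the largest, at 1.19 and 1.15 (log2) against 0.69 to 0.86 on the other 4. All 7 squamous epithelial markers measured lay above the array median, with a mean level of 9.16 to 9.36 on the untreated and 9.18 to 9.32 on the TGF-β1 arrays; KRT14 rose by 0.77 and EPCAM fell by 0.70. Of 10 fibroblast markers 4, of 8 endothelial markers 4 and of 9 immune markers 2 lay above the array median. Of all 19775 genes tested, 13097 lay above it, so that position alone does not mark a cell type. Of the fibroblast list 1 gene was called, COL1A1 (1.58, or 0.65 averaged over its 5 probe sets, of which 2 were called), and the list's median difference was 0.07. Its summed linear signal was 318 to 376 on untreated and 748 to 842 on TGF-β1 arrays, but 118 to 138 and 131 to 137 without COL1A1, a sum added after the values were seen. The endothelial genes KDR (0.29) and CDH5 (-0.41) were called at levels below the array median, and these calls were lost in 6 and in 5 of the 6 fits that left out an array (adjusted p up to 0.11 and 0.105). The part of these markers in the results below was not tested.

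The 4 ID genes did not all respond alike. Their promoters are shown as a description, and no link between promoter sequence and response was tested. The 250 bases before the transcription start of each, from RefSeq on GRCh38.p14, are written in lower case, with capitals, on either strand, for the CCAAT box, for the TATA core TATAA and for the SMAD box CAGAC.
ID1, chr20:31605039-31605288, plus strand: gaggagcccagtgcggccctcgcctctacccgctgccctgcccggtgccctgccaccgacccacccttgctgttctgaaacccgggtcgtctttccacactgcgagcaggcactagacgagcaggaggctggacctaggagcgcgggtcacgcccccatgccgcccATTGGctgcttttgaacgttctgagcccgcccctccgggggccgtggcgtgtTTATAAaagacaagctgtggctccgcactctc
ID2, chr2:8681806-8682055, plus strand: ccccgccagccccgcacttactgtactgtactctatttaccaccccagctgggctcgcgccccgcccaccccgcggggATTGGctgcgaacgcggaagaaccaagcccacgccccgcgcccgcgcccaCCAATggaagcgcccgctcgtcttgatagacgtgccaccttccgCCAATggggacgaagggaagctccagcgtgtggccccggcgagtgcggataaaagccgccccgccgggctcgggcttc
ID3, chr1:23559502-23559751, minus strand: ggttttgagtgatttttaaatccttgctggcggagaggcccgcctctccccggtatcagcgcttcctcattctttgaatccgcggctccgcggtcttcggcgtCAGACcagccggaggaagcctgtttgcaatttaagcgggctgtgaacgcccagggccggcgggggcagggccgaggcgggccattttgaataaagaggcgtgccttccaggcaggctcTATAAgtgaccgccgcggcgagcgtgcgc
ID4, chr6:19837120-19837369, plus strand: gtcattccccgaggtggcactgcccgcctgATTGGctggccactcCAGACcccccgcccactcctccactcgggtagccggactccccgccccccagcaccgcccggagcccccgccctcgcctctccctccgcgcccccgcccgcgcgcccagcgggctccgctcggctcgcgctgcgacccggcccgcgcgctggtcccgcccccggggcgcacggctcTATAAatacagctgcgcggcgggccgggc
Promoter entries were matched for 9 of the 10 genes, all but NOG. TATAA lay between 32 and 25 bases before the start in ID1, ID3 and ID4, and in ID1 it was read on both strands of the same 6 bases; ID2 lacked it. MSX2 also held it, farther upstream, which made 4 of 9, while 18.9% of 35116 promoter windows of this length did. CCAAT was found in 6 of 9, ID1, ID2, ID4, DLX2, MSX1 and MSX2, and in 32.0% of all windows. CAGAC was found in ID3, ID4 and DLX2, and in 38.0% of all windows, and the GC-rich SMAD element GGCGCC in 0 of 9 and in 16.4% of all. The E-box CANNTG was present in ID2, ID4, SMAD9 and DLX2 (61.8% of all windows), and TGACG, a part of the cAMP response element, in ID3, where it overlaps CAGAC, in MSX2 and at 3 places in DLX2 (21.2% of all). The CCAAT box and the TATA core were chosen after the sequences had been seen. A match is a description of these letters, and BMP elements farther upstream than this window were not searched.

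**Figure D1:**
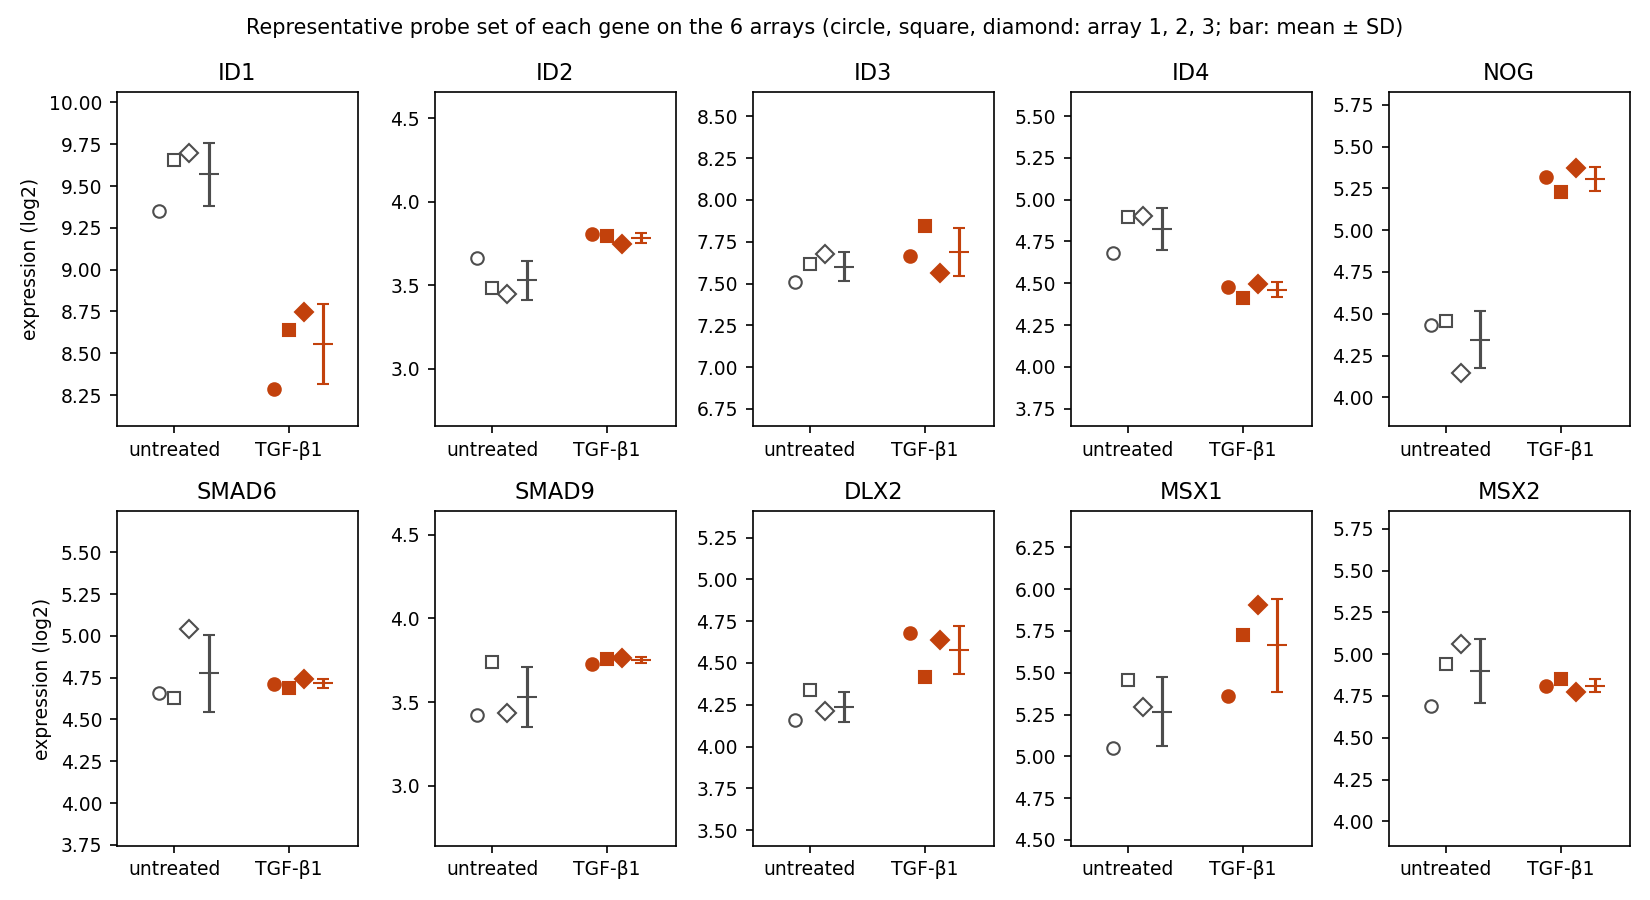
Expression (log2, vertical axis) of the representative probe set of each of the 10 genes on the 3 untreated (open, grey) and 3 TGF-β1 arrays (filled, orange), with mean ± SD as bars and every panel spanning 2 log2 units. ID1 and NOG show the widest separation, by -1.01 and 0.96, and ID4 lies lower on all TGF-β1 arrays by 0.36.

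Of the 10 genes, ID1 and ID4 fell, NOG rose, and 7 did not pass. That is 3 of 10 called, where 8.50% of all 19775 genes were called, 4.03% higher and 4.47% lower. Because the genes were chosen with earlier results of these data known, this share is only a description. The groups did not overlap for 5 of the 10, ID1, ID2, ID4, NOG and DLX2, and for 29.2% of all genes. The median difference was 0.15 (log2) over the 10 genes and 0.00 over all genes tested. In RNA from a whole culture, fewer cells of a type and less RNA per cell cannot be told apart.

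ID1 was the member that fell most. It read 9.35, 9.66 and 9.70 on the untreated arrays and 8.28, 8.64 and 8.75 on the TGF-β1 arrays (log2). Every TGF-β1 array lay below every untreated array, and the array numbered 1 was the lowest of each group. Group means were 9.57 ± 0.19 and 8.56 ± 0.24 (SD, n = 3), a difference of -1.01 ± 0.14 (SE) with a 95% interval from -1.33 to -0.69, or 2.02-fold lower (limma adjusted p = 0.0041). By the size of its difference ID1 was number 121 of the 19775 genes. The call passed in all 15 alternatives run for it, with differences between -1.12 and -0.88, and without both arrays numbered 1 the difference was -0.99. ID1 has 1 probe set, whose suffix (_s_at) marks sequence that may be shared with other transcripts, so no further probe set was there to compare.

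ID4 also fell, by less and on weaker grounds. Its representative probe set read 4.68, 4.89 and 4.90 on untreated and 4.48, 4.41 and 4.50 on TGF-β1 arrays, close to the array median of 4.16. The groups did not overlap, and untreated array 1 was the nearest of its group to the TGF-β1 arrays. The difference was -0.36 ± 0.08 (SE), or 1.29-fold lower (limma adjusted p = 0.0354; the 95% interval ran from -0.56 to -0.17). Leaving out single arrays, the call held only without untreated array 1 (adjusted p = 0.0306) and was lost without untreated array 2 or 3 (adjusted p = 0.123 and 0.124) or TGF-β1 array 1, 2 or 3 (adjusted p = 0.0704, 0.11 and 0.0775). The other 4 probe sets lay below the array median. Among them the brightest, at 3.77, 4.01 and 3.79 against 3.72, 3.30 and 3.18, differed by -0.46 without passing, and the remaining 3 differed by -0.01, 0.04 and 0.22. Averaged over all 5 probe sets, ID4 differed by -0.11 (adjusted p = 0.318).

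ID3 stayed well above the array median in both groups without passing. It read 7.51, 7.62 and 7.68 on untreated and 7.66, 7.85 and 7.56 on TGF-β1 arrays. The groups overlapped, and TGF-β1 array 3 lay below untreated arrays 2 and 3. The difference was 0.09 ± 0.09 (SE), and its 95% interval from -0.12 to 0.30 (limma adjusted p = 0.62) did not reach the size of the fall of ID1.

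ID2 was dim, below the array median, and did not pass. The values were 3.66, 3.48 and 3.45 on untreated and 3.81, 3.79 and 3.75 on TGF-β1 arrays, so the TGF-β1 arrays were all higher, by a narrow margin. The difference was 0.25 ± 0.08 (SE; limma adjusted p = 0.10), and its 95% interval ran from 0.07 to 0.44. The other ID2 probe set differed by 0.26, and a probe set annotated to both ID2 and ID2B by 0.22, again without passing. In all 3 probe sets the groups did not overlap, which was so for 25.0% of the 41091 probe sets with a single symbol.

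**Figure D2:**
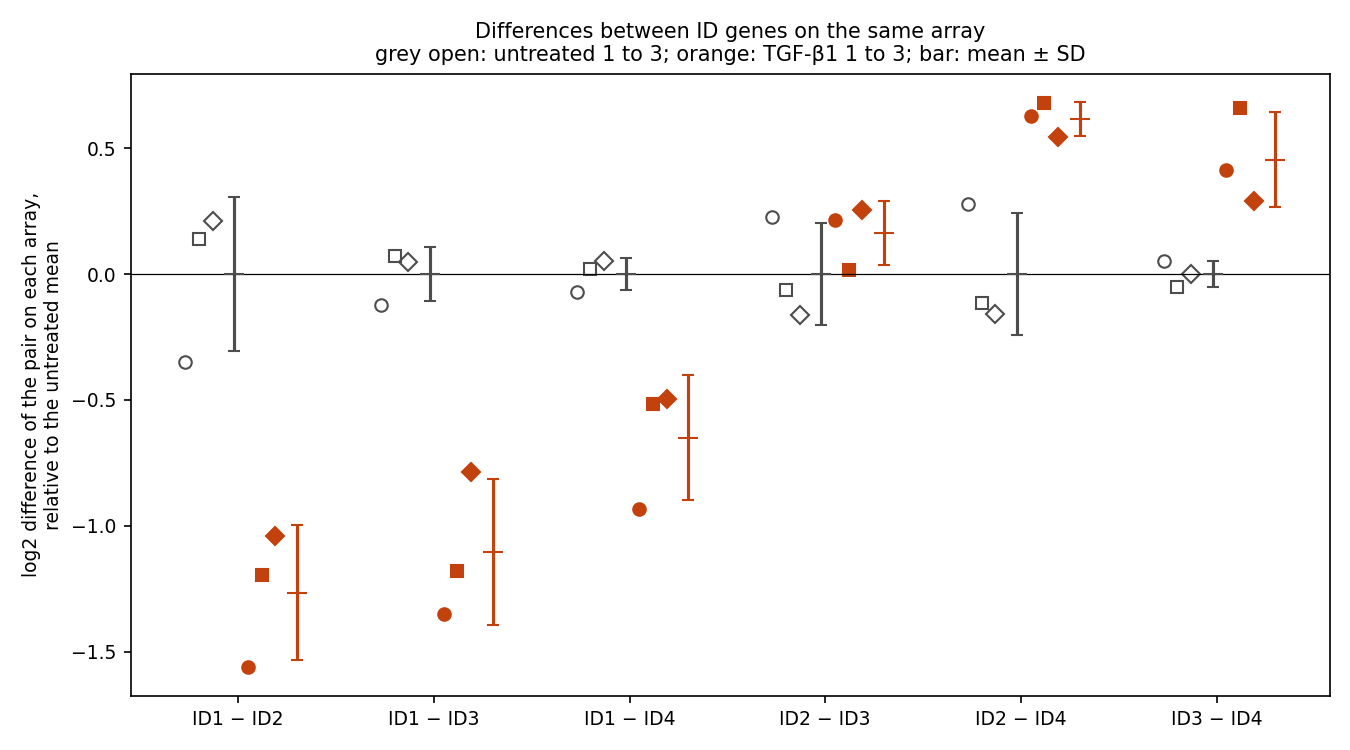
Log2 difference between the members of each pair of ID genes on the same array (vertical axis), relative to the untreated mean of that pair; open grey points are untreated and filled orange points TGF-β1 arrays, with mean ± SD. The 3 pairs with ID1 lie lower on TGF-β1 arrays by 1.27, 1.10 and 0.65, and the arrays of ID2 minus ID3 overlap.

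Whether the ID genes differed from each other was tested on the log2 difference between members of a pair on the same array, for all 6 pairs. ID1 minus ID3, the pair with both genes well above the array median, was 1.85, 2.04 and 2.02 on untreated and 0.62, 0.79 and 1.18 on TGF-β1 arrays. The TGF-β1 arrays were thus all lower than the untreated arrays, by a difference of -1.10 ± 0.14 (SE; 95% interval from -1.43 to -0.78, limma adjusted p over 6 pairs = 2.6e-04). ID1 minus ID2 changed by -1.27 ± 0.18 (SE, limma adjusted p = 2.6e-04) and ID1 minus ID4 by -0.65 ± 0.12 (SE, limma adjusted p = 0.0012). ID4 in turn responded differently from ID2 and ID3: ID2 minus ID4 changed by 0.62 ± 0.12 and ID3 minus ID4 by 0.45 ± 0.10 (SE, limma adjusted p = 0.0012 and 0.0024). With probe sets averaged per gene the pair of ID3 and ID4 did not pass (0.20, adjusted p = 0.0837). ID2 minus ID3 did not pass, at 0.16 (limma adjusted p = 0.198; 95% interval from -0.10 to 0.43), but did without untreated array 1 (0.28, adjusted p = 0.0296). In an exact two-sided permutation test each of the 5 other pairs gave p = 0.1, the smallest that 3 against 3 arrays allow, and ID2 minus ID3 gave p = 0.3. Pairs share genes and are not independent of each other, and ID2 and ID4 are dim, where the RMA method compresses differences. A pair carries the noise of both genes but took the variance prior of single genes. Its SE and limma p-value may therefore be too small.

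NOG, which encodes noggin, a secreted protein that binds BMPs and keeps them from their receptors, was the member that rose. It read 4.43, 4.46 and 4.15 on untreated and 5.32, 5.23 and 5.37 on TGF-β1 arrays. The lowest TGF-β1 array was far above the highest untreated array, and untreated array 3 was the lowest of all. Group means were 4.35 ± 0.17 and 5.31 ± 0.07 (SD, n = 3), a difference of 0.96 ± 0.10 (SE) with a 95% interval from 0.73 to 1.19, or 1.95-fold (limma adjusted p = 0.0011). The rise passed in all 16 alternatives, with differences between 0.86 and 1.02; the lowest was without untreated array 3. NOG has 1 probe set, and its untreated level was close to the array median, where RMA compresses differences.

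The SMADs of this set did not pass. SMAD6, an inhibitory SMAD that acts mostly on BMP receptors, read 4.66, 4.63 and 5.04 on untreated and 4.71, 4.69 and 4.74 on TGF-β1 arrays. Untreated array 3 was the highest, the other arrays lay together, and the difference was -0.06 (limma adjusted p = 0.80; 95% interval from -0.32 to 0.20). The other 3 SMAD6 probe sets differed by 0.19, 0.07 and 0.31, also without passing, so the sign depends on the probe set. SMAD9, a BMP receptor-regulated SMAD, was below the array median at 3.42, 3.74 and 3.44 on untreated and 3.73, 3.76 and 3.76 on TGF-β1 arrays. Its groups overlapped through untreated array 2, and the difference of 0.22 ± 0.10 (SE; 95% interval from -0.01 to 0.44) did not pass (limma adjusted p = 0.23), nor did that of its second probe set, 0.13.

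Among the homeobox genes, which act in craniofacial and limb patterning, DLX2 came nearest to the threshold. It read 4.16, 4.34 and 4.21 on untreated and 4.68, 4.42 and 4.64 on TGF-β1 arrays, close to the array median of 4.16. The groups did not overlap, but TGF-β1 array 2 was close to untreated array 2. The difference was 0.34 ± 0.09 (SE; 95% interval from 0.13 to 0.56, limma adjusted p = 0.0628). DLX2 passed in 3 of 16 alternatives: without TGF-β1 array 2 (adjusted p = 0.047), among genes above the median level alone (adjusted p = 0.0331) and for the mean of both probe sets (0.24, adjusted p = 0.0457). Its other probe set, at a similar level, differed by 0.15 without passing.

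MSX1 and MSX2 did not pass, and their probe sets differed among themselves. MSX1 read 5.05, 5.46 and 5.30 on untreated and 5.36, 5.73 and 5.91 on TGF-β1 arrays. As for ID1, the array numbered 1 was the lowest of each group, and the groups overlapped at TGF-β1 array 1. The difference was 0.40 ± 0.15 (SE; 95% interval from 0.04 to 0.75, limma adjusted p = 0.17), while the second MSX1 probe set, at 5.09 to 5.18 on untreated and 5.11 to 5.28 on TGF-β1 arrays, differed by 0.07. MSX2 read 4.69, 4.94 and 5.06 on untreated and 4.81, 4.85 and 4.77 on TGF-β1 arrays, with all TGF-β1 values inside the untreated range and a difference of -0.08 (95% interval from -0.32 to 0.15, limma adjusted p = 0.67). The other MSX2 probe sets differed the other way, by 0.27 at a level of 4.64 and by 0.36 at 2.73, each with groups that did not overlap and without passing (limma over probe sets, adjusted p = 0.20 and 0.0735).

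**Figure D3:**
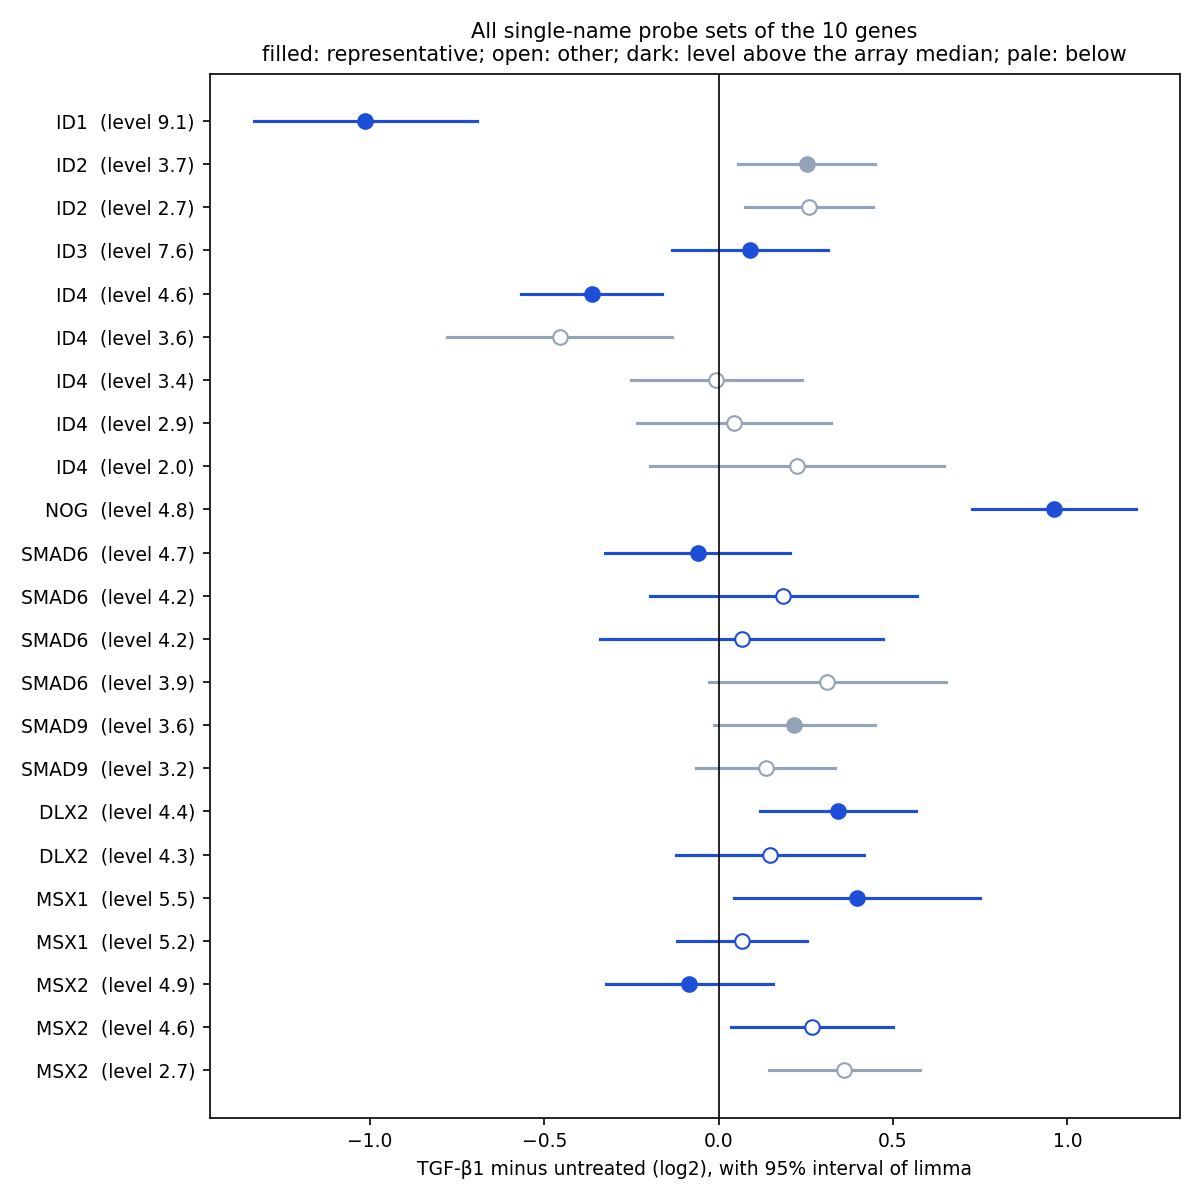
Difference between TGF-β1 and untreated arrays (log2, horizontal axis) with its 95% interval for all 23 probe sets of the 10 genes, from limma over 41091 probe sets; labels give the mean level, filled points are representatives and pale points lie below the array median. ID1 and NOG stand apart at -1.01 and 0.96, and probe sets of ID4, SMAD6 and MSX2 lie on both sides of 0.

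Over all 23 probe sets 17 were higher and 6 lower with TGF-β1. When each was tested alone, 2 of 23 were called, those of ID1 and NOG, where 4.67% of the 41091 probe sets were called, and ID4 was not (limma, adjusted p = 0.058). The groups did not overlap for 9 of 23, where this held for 25.0% of all probe sets.

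The genes with profiles most like ID1, by Euclidean distance between mean-centred log2 values over 6 arrays, were the chemokine gene CXCL1 (0.204), the calcium-activated chloride channel regulator CLCA2 (0.205), DENND2A (0.237), the double-stranded RNA receptor TLR3 (0.250) and the ubiquitin ligase TRIM2 (0.261). Their differences ran from -0.89 for TLR3 to -1.01 for CLCA2, against -1.01 for ID1. For NOG they were the tetraspanin CD151 (0.178), MARCKSL1 (0.209), the heparan sulfate enzyme NDST1 (0.219), PID1 (0.221) and HMOX1, which encodes heme oxygenase (0.224), with differences from 0.81 for PID1 to 1.04 for HMOX1. TRIM2 differed by -0.06 with probe sets of shared sequence left out, and PID1 by 0.22 as the mean of its probe sets, neither of which passed (adjusted p = 0.763 and 0.134).

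**Figure D4:**
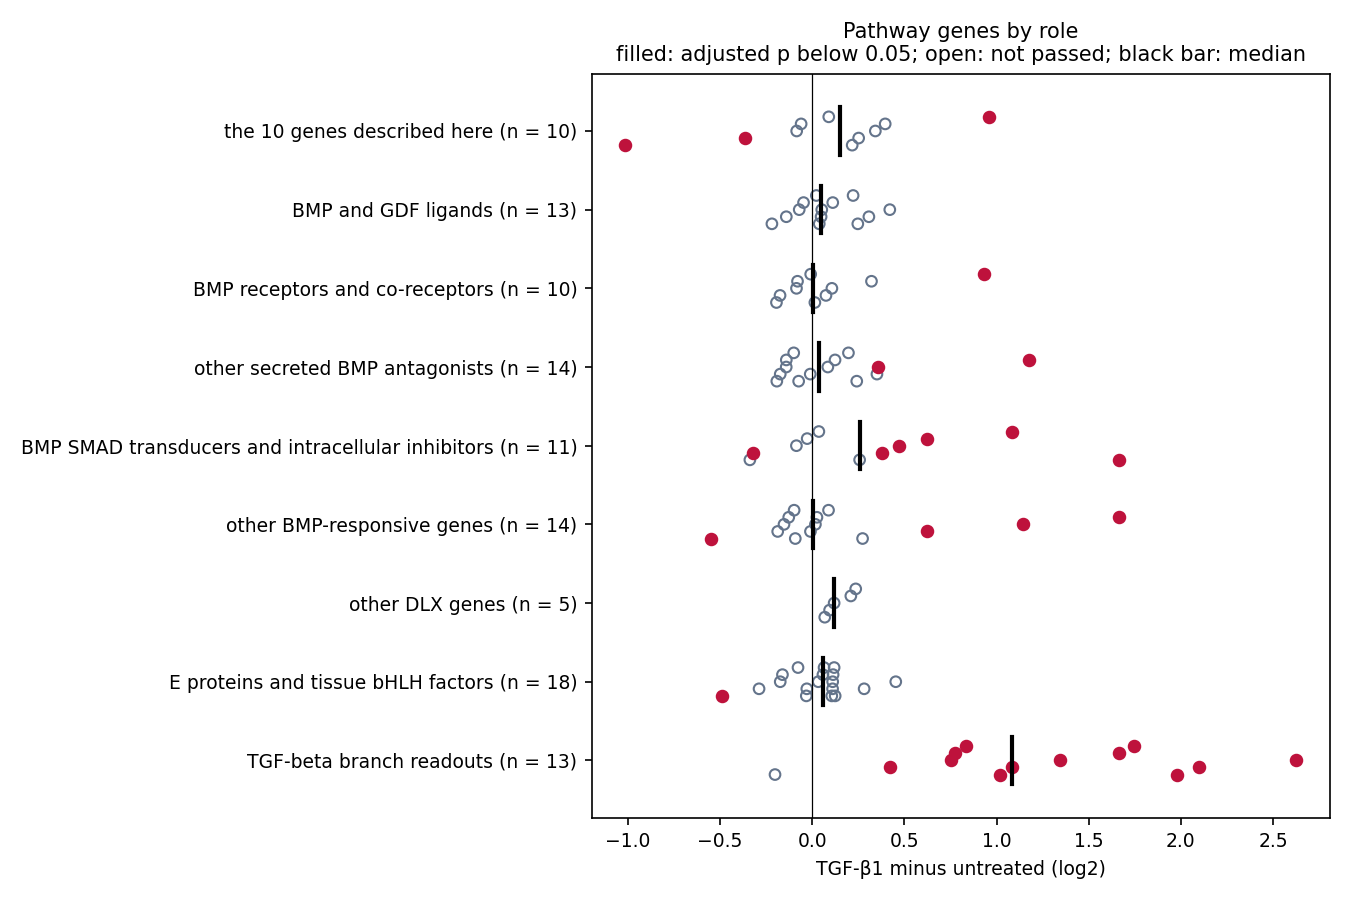
Difference between TGF-β1 and untreated arrays (log2, horizontal axis) for each measured gene of the 10 described here and of 8 lists by role; filled points passed at an adjusted p below 0.05, open points did not, and black bars are medians. The BMP ligand list has 0 filled points of 13, and the TGF-β readout list has 12 of 13, with SMAD7, SKIL and BAMBI shown in each list they belong to.

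The other genes of the BMP branch are given by role, beside the 8.50% of all genes called. Of 13 BMP and GDF ligands 0 were called (median difference 0.05, log2). BMP2, BMP4 and BMP7, which noggin binds, differed by 0.42, 0.31 and 0.22 without passing (limma adjusted p = 0.11, 0.0912 and 0.25). The other BMP2 probe set differed by 0.13 and the other BMP7 probe sets by -0.20, -0.01 and 0.10, without passing. Of 10 receptors and co-receptors 1 rose, the type II receptor BMPR2, from 8.03 to 8.96 (0.93 ± 0.07, SE, limma adjusted p = 1.8e-04), with 4 of its 6 probe sets called; the type I receptor ACVR1 differed by 0.32 without passing (adjusted p = 0.0598), and BMPR1A was not analysed here. Among the signal-transducing BMP SMADs, the partners of SMAD9, SMAD1 differed by -0.34 (adjusted p = 0.0697) and SMAD5 by -0.03, and the common SMAD4 by -0.09, without passing. SMAD1 passed in 4 of 15 alternatives, among them the fit without untreated array 1 (adjusted p = 0.0402). Its other probe sets differed by -0.35 and, at a level of 2.37, by 0.07, without passing.

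Several inhibitors that act inside the cell rose. Of 11 SMAD transducers and intracellular inhibitors 5 rose and 1 fell (median 0.26): unlike SMAD6, the inhibitory SMAD7 rose by 1.67, the SMAD corepressor SKIL by 1.08, the pseudoreceptor BAMBI by 0.62 and the ubiquitin ligase SMURF2 by 0.47. SMURF1 (0.38) was the fifth rise and TOB1 (-0.32), an antiproliferative protein that binds BMP SMADs, the fall; both are named after their values were seen. The BAMBI call was lost without TGF-β1 array 2 or 3 (adjusted p = 0.0625 and 0.0586), and the SMURF1 and TOB1 calls each in 5 of the 6 fits that left out an array (adjusted p up to 0.0851 for each). Of 14 other secreted antagonists 2 rose, FSTL3, which binds activins and some BMPs, by 1.17 and FSTL1 by 0.36 (median 0.04). FSTL1 passed in 8 of 15 alternatives, and of the 6 fits that left out an array only in that without TGF-β1 array 2.

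Of 14 BMP-responsive genes outside the 10, 3 rose and 1 fell (median 0.00): SMAD7 and BAMBI as above, and the T-box factor TBX3 by 1.14, while the epithelial factor TFAP2A fell by 0.55. Averaged over its probe sets, TFAP2A differed by -0.26 and did not pass (limma adjusted p = 0.0822). Of the 5 other DLX genes 0 were called, with differences from 0.07 to 0.24 beside the 0.34 of DLX2. Of 18 E proteins and tissue helix-loop-helix factors 1 was called: ASCL2 fell by 0.49 (limma adjusted p = 0.0388). When single arrays were left out, this call held only without untreated array 2 (limma adjusted p up to 0.12). The E protein genes TCF3, TCF12 and TCF4 differed by 0.06, 0.11 and 0.45 without passing, the last at a level below the array median. The 14 TCF3 probe sets lay on both sides of 0. A dimmer TCF3 probe set, at a level of 4.57, was called lower (-0.56, limma over probe sets, adjusted p = 0.0427).

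Readouts of the TGF-β branch rose on the same arrays. Of 13 such genes 12 rose and 0 fell (median 1.08). Among them RHOB rose by 2.63, CCN2 by 2.10, PMEPA1 by 1.98, FN1 by 1.75 and ATF3 by 1.35. The remaining readout differed by -0.20 without passing. Averaged over their probe sets, RHOB differed by 0.60 and ATF3 by 0.76, the lowest of 15 alternatives for each, all of which passed. Whether ATF3, named above as a partner of SMAD3, had a part in the fall of ID1 was not tested. The groups did not overlap for 13 of 13 readouts, and for 29.2% of all genes. SMAD7 and SKIL are counted in this list too. Many of these genes were already known from earlier results of these data, so the count is a description beside the fall of ID1 and the rise of NOG.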

How the data were processed

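Gene expression was measured on 6 Affymetrix arrays of 54675 probe sets, 3 per group. The deposited values are log2 expression estimates, made with Affymetrix Expression Console and RMA per the submitters' processing notes, with no version named there. RMA corrects background, brings arrays to a common distribution and summarises each probe set, and it compresses differences of dim probe sets. That the scale is log2 was taken from the range of the values. No detection calls were used, and arrays have no read depth: 3 arrays per group limit the precision.

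Names came from the platform annotation, updated through gene numbers to RefSeq symbols of GRCh38.p14 (0 symbols changed). Probe sets with several symbols (1801) were left out of the gene fits. The comparison used limma 3.58.1 (R 4.3.3) without covariates or filter, and p-values were adjusted over 19775 genes, over 41091 probe sets for single probe sets, and over 6 pairs for differences between ID genes. The rows of pairs took their variance prior from a fit with all genes, which may make their SEs and p-values too small. The fit was tested on simulated data, where it recovered 86% of 2-fold and 50% of 1.5-fold changes. Not passing therefore does not show that a gene was unchanged. The members and lists were chosen with earlier results of these data known. Genes named are all 10 members, up to 4 called genes per list with the smallest p, a fixed set of BMP and E protein genes with ATF3, and the 5 profiles nearest to ID1 and NOG. Of the listed pathway and marker genes without a singly named probe set, none was analysed here. Same-numbered arrays deviated from their group means together at correlations of 0.18, 0.04 and 0.08, so the number was not used as a block.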

Additional observations from a re-analysis of the deposited data

How the results depend on the processing

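The directions of ID1, ID4, NOG, DLX2, ID2, ID3, SMAD9 and MSX1 held in every alternative in which they were tested, and ID1 (15 alternatives) and NOG (16) passed in each. ID1, ID2 and ID3 have no probe set without a suffix, so that alternative gives no value for them or for the pairs. With suffixed probe sets left out, 0 members were lower, through ID1 having no probe set and ID4 not passing (-0.46, adjusted p = 0.106), and 482 genes were called higher and 513 lower, with fewer genes tested. With probe sets averaged per gene, 2 members were higher and 1 lower, 0 pathway genes were lower against 3, and ID3 minus ID4 was 0.20 without passing. Among genes above the median level 2 members were higher. With every probe set tested 1 member was lower. With a trended robust variance 1527 genes were lower against 884. With the replicate number as a block 1 member was lower, since ID4 did not pass (adjusted p = 0.0622); the calls of ID1 and NOG, and of the 5 ID pairs, held. Leaving out single arrays, which leaves fewer samples, gave 1 to 2 members higher, 1 to 2 lower, 404 to 688 genes higher, 317 to 631 lower, 1 to 2 pathway genes lower and 0.081 to 0.28 for ID2 minus ID3. Without both arrays numbered 1, 1 member was lower (ID4, adjusted p = 0.0568), 1 pathway gene was lower, and 358 genes were higher and 270 lower. The cause was not tested where none is given. Probe sets near or below the array median, as for ID2, ID4, NOG, SMAD6, SMAD9, DLX2 and MSX2, limit what these arrays can show.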
